A study of Drosophila melanogaster with 2 samples.

Results

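The authors' longer list for the whole series, called the pooled list here, held 1825 peaks on the arms X, 2L, 2R, 3L, 3R and 4, and 203 of them had their summit more than 10000 bp from the nearest protein-coding transcription start site (TSS). Within that list these distal peaks were chosen by position alone, with dm6 coordinates and Ensembl release 115 genes. Peak strength played no part in that step, but the list itself had already been thresholded by the authors. The distal peaks made up 11.1% of the peaks (95% Wilson interval 9.76% to 12.6%). The experiment was chromatin immunoprecipitation followed by sequencing (ChIP-seq) with an anti-GFP antibody, in whole embryos of the strain gt-GFP aged 0 to 18 h. The flies carried a transgene for an eGFP fusion of the gt product. There was 1 group with 2 biological replicates, both carried the tag, and no untagged or mutant group was compared. Whole embryos across so long a window mix many stages and cell types, and the labels give no cell type within them. Sonicated fragments were 200 to 800 bp long, and the files hold no read counts, so depth is unknown.

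Giant, the product of gt, is a basic leucine zipper (bZIP) transcription factor of the gap class, which represses other segmentation genes in broad stripes of the early embryo. In Drosophila, regulatory DNA that acts from afar is common around genes of patterning and neural development, which often have long introns and wide intergenic flanks. A peak in such DNA marks where chromatin was recovered, and by itself names no target gene. For the distances here the nearest protein-coding TSS is given as a landmark.

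The windows of the 5 strongest distal summits called in both replicates on arms 2L, 3L, 3R and X, among those clear of exons, are shown, each reaching 100 bases to either side of the summit. Capitals mark the summit base and any match to the 11 motifs searched for. The chinmo and fz windows held no match, the osa window held 1 GATA site, the CG6959 window held 1 match to a family of 7-mers with the core CAGTG, and the CG13896 window held copies of such 7-mers on both sides of the summit, in opposite orientations. All sequences are from the RefSeq Release 6 genome, the assembly of the files.
near chinmo, chr2L:1638691-1638891, plus strand: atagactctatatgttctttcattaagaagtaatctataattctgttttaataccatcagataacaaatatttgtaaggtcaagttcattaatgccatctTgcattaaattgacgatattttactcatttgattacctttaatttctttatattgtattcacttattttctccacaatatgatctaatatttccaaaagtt
CG6959 intron, chr3R:11849714-11849914, plus strand: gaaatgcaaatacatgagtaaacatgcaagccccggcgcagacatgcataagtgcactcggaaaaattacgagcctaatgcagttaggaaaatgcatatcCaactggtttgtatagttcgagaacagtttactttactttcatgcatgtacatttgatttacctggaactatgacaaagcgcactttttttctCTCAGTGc
fz intron, chr3L:14303945-14304145, plus strand: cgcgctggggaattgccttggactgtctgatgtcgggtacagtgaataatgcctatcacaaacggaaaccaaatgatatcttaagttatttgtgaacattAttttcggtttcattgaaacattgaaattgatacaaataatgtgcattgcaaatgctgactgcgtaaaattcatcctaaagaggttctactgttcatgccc
near CG13896, chr3L:724632-724832, plus strand: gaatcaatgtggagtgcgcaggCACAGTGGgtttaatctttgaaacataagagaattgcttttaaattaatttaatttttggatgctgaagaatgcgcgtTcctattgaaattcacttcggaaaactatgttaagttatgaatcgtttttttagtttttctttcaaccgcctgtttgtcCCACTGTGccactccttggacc
osa intron, chr3R:17700455-17700655, plus strand: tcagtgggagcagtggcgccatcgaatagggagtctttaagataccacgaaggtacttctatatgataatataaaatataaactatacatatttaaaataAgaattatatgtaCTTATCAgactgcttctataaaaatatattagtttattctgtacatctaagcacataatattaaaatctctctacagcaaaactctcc

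The family has 4 members, ACAGTGG, the similar CAGTGTA, then CACTGAG and lastly CACAGTG, and came from an earlier scan of all pooled summits, and 53 of the 203 distal windows held at least 1 of them on either strand. Read on the strand that carries CAGTG, they fell into 2 kinds of sequence, which were told apart after the distal windows had been seen. Class 1 is CTCAGTG (the reverse complement of CACTGAG) or CAGTGTA, and class 2 is ACAGTGG or else CACAGTG, which overlap where both are present. Class 1 was found at 33 distal summits and class 2 at 21, with both at 1 summit. The class 1 copies at the 8 strongest such distal peaks on arms 2L, 3L, 3R and X, outside exons, are shown on the strand of the motif, with the 7-mer in capitals.
CG6959 intron, chr3R:11849889-11849923, plus strand: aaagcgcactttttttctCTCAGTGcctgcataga
nkd intron, chr3L:19024930-19024964, minus strand: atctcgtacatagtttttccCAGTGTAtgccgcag
near noc, chr2L:14502815-14502849, plus strand: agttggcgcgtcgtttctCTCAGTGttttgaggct
mtgo intron, chr2L:16620493-16620527, minus strand: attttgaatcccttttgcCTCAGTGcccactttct
near CG43245, chr3L:10738711-10738745, minus strand: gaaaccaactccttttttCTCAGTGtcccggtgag
near GCS2alpha, chrX:21594144-21594178, plus strand: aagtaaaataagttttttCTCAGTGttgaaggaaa
near Sf3b3, chr3L:821990-822024, minus strand: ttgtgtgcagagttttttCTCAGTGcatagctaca
near Rca1, chr2L:6841598-6841632, plus strand: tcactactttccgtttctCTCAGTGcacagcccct

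The class 2 copies at the 8 strongest such distal peaks on the same arms, outside exons, are aligned in the same way, with the core CAGTG starting at the same base as in the class 1 windows.
near CG13896, chr3L:724636-724670, plus strand: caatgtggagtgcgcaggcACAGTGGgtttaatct
Hr4 intron, chrX:1963843-1963877, plus strand: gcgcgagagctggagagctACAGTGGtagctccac
rdx intron, chr3R:14012626-14012660, plus strand: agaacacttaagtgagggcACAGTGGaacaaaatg
near tal-1A, chr3R:13800472-13800506, plus strand: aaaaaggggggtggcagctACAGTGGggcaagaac
gpp intron, chr3R:6424186-6424220, minus strand: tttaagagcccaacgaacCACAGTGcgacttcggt
Sema1a intron, chr2L:8575240-8575274, minus strand: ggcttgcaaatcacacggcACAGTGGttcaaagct
near heca, chr3R:30265678-30265712, minus strand: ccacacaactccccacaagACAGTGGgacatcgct
Snoo intron, chr2L:7925652-7925686, minus strand: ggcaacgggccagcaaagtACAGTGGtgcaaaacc

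Class 1 copies followed a tract rich in T, counted over the 8 bases before the 7-mer so that none of its own letters entered. At the 18 distal summits whose nearest class 1 copy was CTCAGTG, T made up 62.5% of these bases and C or T 77.1%. At 3502 copies of CTCAGTG in distal sequence over 1000 bp from any pooled summit, T made up 35.8% and C or T 56.5%. At the 15 distal summits whose nearest class 1 copy was CAGTGTA, T made up 53.3%, against 35.5% at 3973 copies away from summits. In class 2, T made up 20.4% of the bases before ACAGTGG at the 19 distal summits where it was recorded as the nearest class 2 copy. At 4674 copies away from summits it made up 25.8%. Before CACAGTG, T made up 43.8% at the only 2 distal summits where CACAGTG was recorded as nearest, against 26.9% at 4410 copies away from summits. Where both overlapped, ACAGTGG was recorded.

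The summit mostly lay on opposite sides of the 2 classes. Along the strand of the motif, the core of class 1 was 3′ of the summit in 29 of 33 distal peaks and 5′ of it in 4, at a median of 48 bp 3′ (quartiles 38 and 67 bp). The core of class 2 was 5′ of the summit in 18 of 21 distal peaks and 3′ of it in 3, with a median offset of −59 bp (quartiles −63 and −30 bp). The same arrangement was found in the other pooled peaks, whose windows were not used to tell the classes apart. The motif family itself came from a scan of all pooled summits, theirs included, and all peaks share 2 libraries. These peaks are therefore not an independent check. Among nearer non-promoter peaks, whose summits lie more than 500 and at most 10000 bp from a protein-coding TSS, class 1 was 3′ of the summit in 104 of 129 cases (median 47 bp), and class 2 was 5′ of it in 104 of 131 (median −53 bp). In promoter peaks, within 500 bp of such a TSS, the counts were 57 of 69 for class 1 and 72 of 96 for class 2. The side of class 2 held mainly for ACAGTGG. Copies recorded as CACAGTG lay on both sides of the summit in every set of peaks, at −89 and 61 bp in the only 2 distal cases. At some nearer non-promoter peaks the same core counted in both classes. No annotated TSS on the strand of the motif lay within 500 bp of any of the 33 class 1 or 21 class 2 distal copies. For protein-coding TSSs the choice of distal peaks fixed this in advance, so only non-coding starts could have counted.

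**Figure D1:**
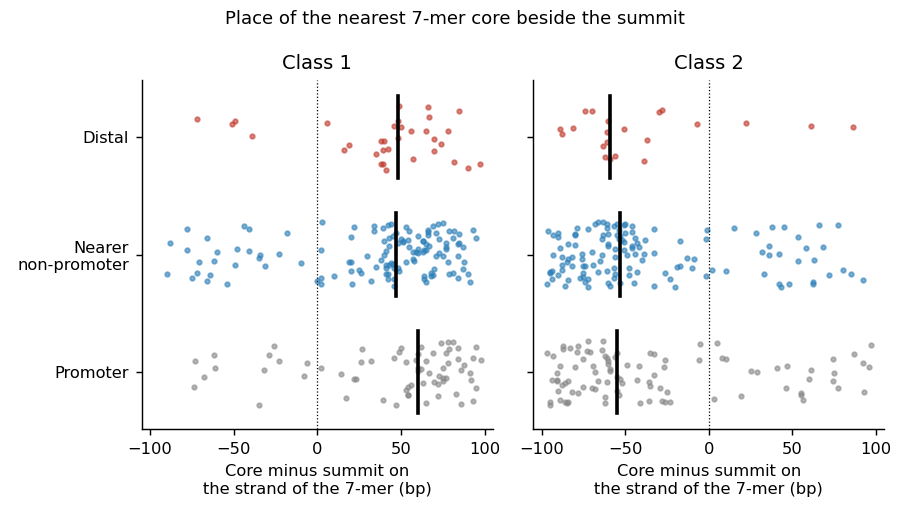
Position of the nearest class 1 (left panel) and class 2 (right panel) core relative to the summit, in bp along the strand of the motif; each point is a peak with a match, rows are distal, nearer non-promoter and promoter peaks, and black bars are medians. Points of class 1 gather right of 0 and those of class 2 left of 0 in all 3 rows, with distal medians of 48 and −59 bp.

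Among distal peaks the 2 classes differed in strength. When the distal peaks were ranked and divided into 3 bins, the strongest bin (signal 97.1 to 610) held class 2 at 15 of 67 peaks (22.4%) and class 1 at 7 (10.4%). The weakest bin (2.58 to 72.4) held class 2 at 2 of 69 peaks (2.90%) and class 1 at 15 (21.7%). The median signal was 76.3 for the 33 class 1 peaks, 109 for the 21 class 2 peaks and 79.8 for the 150 distal peaks with neither. In nearer non-promoter peaks the medians lay closer together, at 93.7 for class 1 and 98.1 for class 2, and in promoter peaks they were 107 for class 1 and 144 for class 2. A peak of both replicates covered 6 of 33 class 1 peaks (18.2%, interval 8.61% to 34.4%) and 11 of 21 class 2 peaks (52.4%, interval 32.4% to 71.7%), beside 37 of the 150 distal peaks with neither (24.7%), 26.6% of all distal peaks and 41.2% of all pooled peaks. These counts are small and the classes were drawn on these windows, so they are given without a test.

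Across all 4 7-mers, 53 distal summit windows (26.1%) held a match, against 12 of the windows centred 1000 bp lower in coordinate and 11 of those 1000 bp higher. All distal sequence, divided into 196132 windows of the same width, held one in 6.97% of them. The 7-mers were picked from a scan that included these summits, which favours an excess there, so it was not tested. Nearer non-promoter summits held one in 245 of 846 cases (29.0%), and the difference of −2.85 percentage points was not called (Fisher's exact test, two-sided, adjusted p = 0.593). Of the single 7-mers, CACTGAG was found at 21 distal summits, ACAGTGG at 19, CAGTGTA at 17 and CACAGTG at 10. A match was found at 23 of 81 distal summits in introns and 30 of 118 in intergenic sequence, and 5 distal windows held cores on both sides of the summit on opposite strands.

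The site of Giant itself was rare at distal summits. TTACGTAA, the palindrome that Giant and related bZIP proteins bind, was found exactly at 0 of 203 distal summits, which allows a share of up to 1.48% (3 counts of 203), and at 7 of all 1825 pooled summits. With 1 mismatch allowed it was found at 12 distal summits (5.91%), against 15 lower flanks and 9 higher flanks, and in 7.2% of all distal windows (exact McNemar test against the lower flank, adjusted p = 1). At nearer non-promoter summits it was found in 67 of 846 (7.92%, Fisher's exact test, adjusted p = 0.593). A permutation of the same letters, TAACGTTA with 1 mismatch allowed, was found at 7 distal and 63 nearer non-promoter summits (3.45% and 7.45%, adjusted p = 0.197).

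Sites of other embryonic regulators were found at 0 to 22 of the 203 distal summits. CAGGTAG, the site of the early activator Zelda, was found at 4 distal summits (1.97%), 0 lower flanks and 3 higher flanks. TGATAAG, bound by GATA factors, was found at 6 (2.96%), against 5 lower and 9 higher flanks. GAGAGAG, the repeat bound by GAGA factor, was at 5 (2.46%), against 7 lower and 7 higher flanks. TGACTCA, the AP-1 site, was at 3 (1.48%), against 4 lower and 4 higher flanks. CAGCTG, an E-box bound by basic helix-loop-helix proteins, was found at 22 (10.8%), against 17 lower and 15 higher flanks. TTAATTA, a homeodomain site, was found at 11 (5.42%), against 17 lower and 24 higher flanks and 8.54% of all distal windows. TTGCATA, part of the insulator protein Su(Hw)'s site, was at 12 (5.91%), against 13 lower and 13 higher flanks. TATCGATA, the DREF site found at many housekeeping promoters, was at 0 distal, 3 nearer non-promoter and 45 promoter summits. All 11 motifs were searched on both strands with the whole match inside the window. Of the 10 tested against the lower flank, 0 were called by the exact McNemar test, and 0 had an unadjusted p under 0.05.

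**Figure D2:**
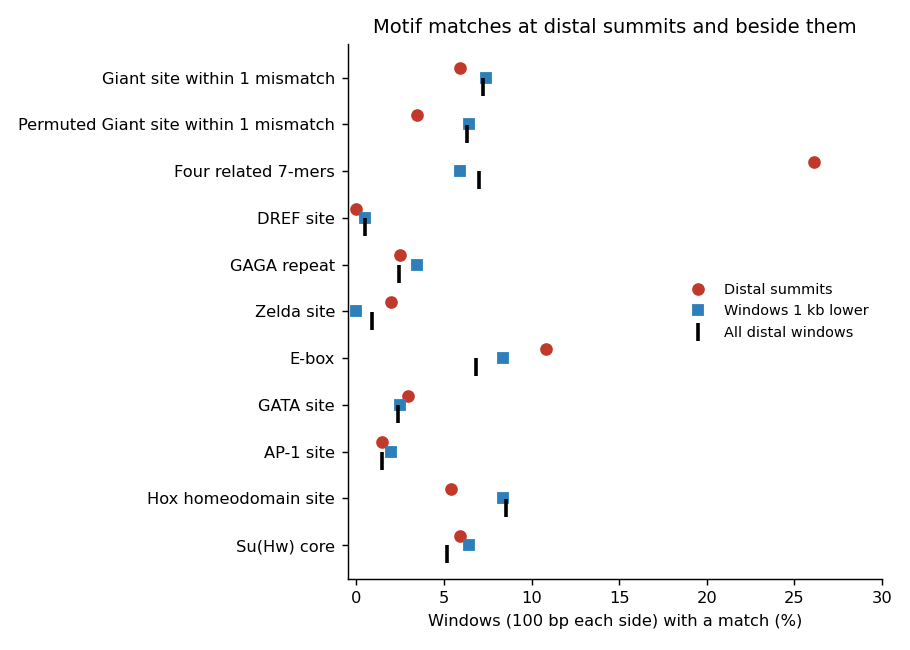
Share (%) of windows reaching 100 bp to either side with a match to each motif at the 203 distal summits (red circles), in the windows 1 kb lower (blue squares) and in all distal windows of the main arms (black bars). The related 7-mers stand at 26.1% at summits against 5.91% in the lower flanks, and each of the other motifs differs from the lower flank by under 3 percentage points. The 7-mers alone were picked from a scan of pooled summits, these included, so their excess is a description and was not tested.

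The strongest distal peaks were spread over 5 arms. The highest signal, 610 in the pooled list, was in intergenic DNA on 2R (13035227 to 13035434), 11911 bp downstream of the TSS of CG13323, and its ranked regions had signals of 224 in replicate 1 and 387 in replicate 2. The next was in a 5′ UTR exon of baz (X, 17178579 to 17178806), which encodes the apical polarity scaffold Bazooka: 380 in the pooled list, 139 in replicate 1 and 225 in replicate 2. Each of these led its arm, and both were called in both replicates.

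Introns held 7 of the 12 strongest distal peaks called in both replicates. In sbb, which encodes the nuclear corepressor Scribbler, a peak at 2R 18335195 to 18335341 had a pooled signal of 291, with 95.7 in replicate 1 and 184 in replicate 2. A second sbb peak at 18338319 to 18338674 had 238, with 101 in replicate 1 and 148 in replicate 2. In osa, which encodes a subunit of the BAP chromatin remodelling complex, a peak at 3R 17704335 to 17704469 had 280, with 118 in replicate 1 and 164 in replicate 2. The sbb peaks lay in the same gene, 18799 and 22012 bp from its nearest TSS.

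The other osa peak (3R 17700377 to 17700732) had 206, with 66.4 in replicate 1 and 137 in replicate 2. An intron of CG6959 (3R 11849769 to 11849939) had 265, with 118 in replicate 1 and 138 in replicate 2. An intron of fz, the gene of the Wnt and planar polarity receptor Frizzled (3L 14303979 to 14304130), had 261, with 109 in replicate 1 and 139 in replicate 2. The nearest protein-coding TSS to this fz peak was that of another gene, CG13482, at 25301 bp, which was true of 29 of the 81 intronic distal peaks: their nearest TSS was not that of the gene around them. An intron of Hr4, a nuclear receptor gene of the ecdysone response (X 1963895 to 1963994), had 205, with 91.9 in replicate 1 and 107 in replicate 2.

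Besides the peak by CG13323, the intergenic peaks of this set lay by chinmo, CG13896 and CG13898. The peak 12467 bp upstream of chinmo, a BTB zinc-finger gene of neuronal temporal identity (2L 1638613 to 1638968), had 279 in the pooled list, with 77.0 in replicate 1 and 205 in replicate 2. The peak by CG13896 (3L 724715 to 724820) had 239, with 104 in replicate 1 and 133 in replicate 2. The peak by CG13898 (3L 781186 to 781541) had 205, with 77.3 in replicate 1 and 131 in replicate 2. Replicate 2 had the larger value at all 12 named peaks, but signals of different lists are not on a shared scale, since their scaling was not stated.

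**Figure D3:**
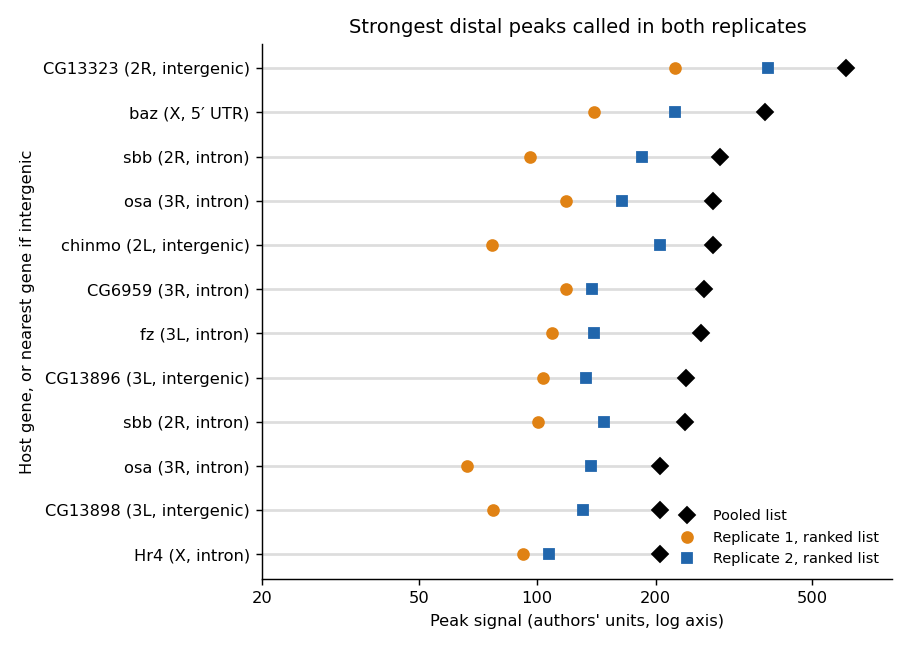
Peak signal (authors' units, log axis) of the 12 strongest distal peaks called in both replicates, in the pooled list (black diamonds) and in the ranked lists of replicate 1 (orange circles) and replicate 2 (blue squares). The pooled values run between 205 and 610, and replicate 2 lies right of replicate 1 in every row.

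Most distal peaks were weaker than these. The pooled signal of all 203 had a lowest value of 2.58, a median of 82.4 and a highest of 610, against medians of 88.1 in the 846 nearer non-promoter peaks and 106 in the 776 promoter peaks. Signals above the median of the pooled list were found for 75 distal peaks (36.9%) and 377 nearer non-promoter peaks (44.6%), and the difference of −7.62 points was not called (Fisher's exact test, adjusted p = 0.221). The 12 distal peaks with signals under 30 each overlapped another pooled peak. In all, 24 distal peaks overlapped another distal peak, and the same number shared their ranked region of replicate 1, so the 203 are not 203 separate places. Distance to the TSS and pooled signal had a Spearman correlation of −0.03 over the 203 peaks, as a description.

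A thresholded peak of both replicates overlapped 54 of the 203 distal peaks (26.6%, interval 21.0% to 33.1%), whereas the share over all pooled peaks was 41.2%. It was 301 of 846 (35.6%) for nearer non-promoter peaks, and the difference of −8.98 points was not called after adjustment over the 19 shares tested (Fisher's exact test, two-sided, unadjusted p = 0.0165, adjusted p = 0.105). Replicate 1 alone covered 36 distal peaks, replicate 2 alone 37, and neither list covered 76. The median pooled signal was 136 for the 54 peaks in both lists, 88.7 and 83.2 for those in the list of replicate 1 or 2 alone, and 67.4 for the 76 in neither. The authors' conservative list held 146 of the distal peaks (71.9%) and 622 of the nearer ones (73.5%, adjusted p = 0.783). In the long ranked lists, all but 2 distal peaks had a region in replicate 1 and all but 1 in replicate 2. The signals of the replicates had a Spearman correlation of 0.43 over 200 distal peaks and 0.54 over 831 nearer non-promoter peaks, as descriptions over peaks that share their libraries.

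**Figure D4:**
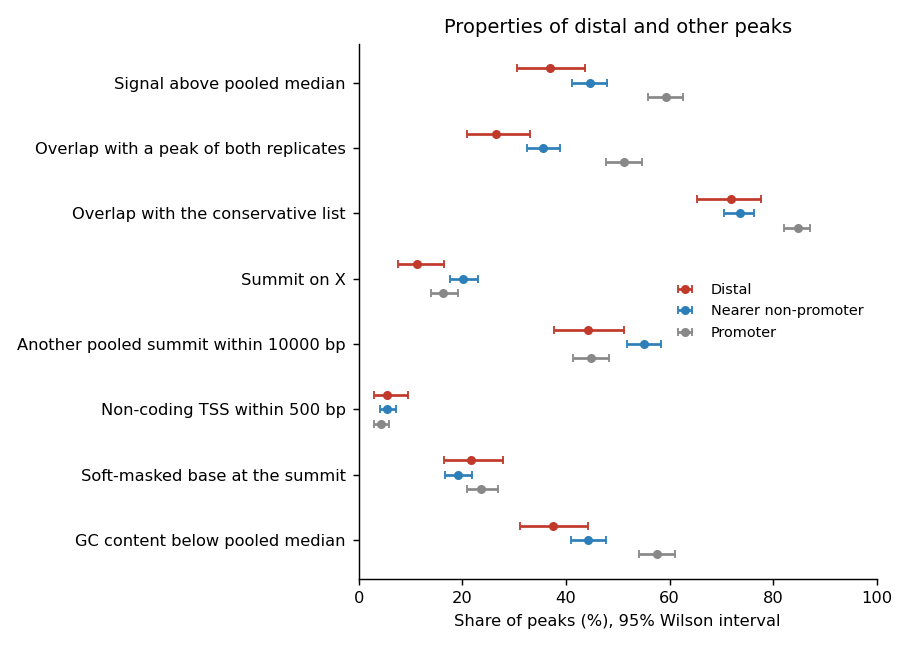
Share of distal (red, 203), nearer non-promoter (blue, 846) and promoter (grey, 776) peaks with each property, in %, with 95% Wilson intervals. Distal peaks lie left of nearer non-promoter peaks for overlap with both replicates, place on X and a neighbouring summit, but 0 of the 19 differences tested were called and 4 had an unadjusted p under 0.05 by Fisher's exact test.

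Distal regions became more common down the ranks. In the authors' ranked list of the pooled data, 14 of the 250 strongest regions were distal (5.6%), then 8.4% of ranks 251 to 500 and 12% of the next 500 regions. The share was 16.1% for ranks 1001 to 2000, 20.8% for ranks 2001 to 5000 and 27.5% for ranks 50001 to 145186. By comparison, 29.8% of the bases of the main arms lie more than 10000 bp from a protein-coding TSS. The lists of the single replicates gave distal shares of 102 of 1163 (8.77%) for replicate 1 and 103 of 1100 (9.36%) for replicate 2.

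**Figure D5:**
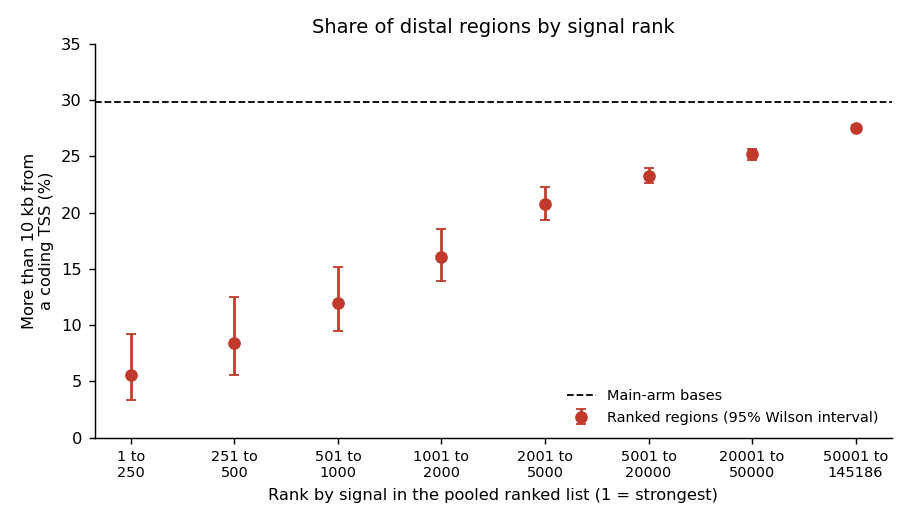
Share (%) of regions more than 10 kb from a protein-coding TSS in bins of signal rank of the pooled ranked list, with 95% Wilson intervals, and the share of main-arm bases at such distances (dashed line). The share climbs with each bin, with 5.6% among the strongest 250 regions, and stays below the dashed line at 29.8%.

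The arms differed in how many distal peaks they held. Arm 2L had 57, 3L had 54, 3R had 46, 2R and X had 23 each, and 4 had 0. Per Mb of sequence beyond 10000 bp from a TSS, this came to 9.61 on 2L, 5.70 on 3L, 4.6 on 3R, 3.57 on X and 2.96 on 2R. X, the chromosome of gt, held 11.3% of distal and 20.2% of nearer non-promoter peaks, a difference of −8.88 points that was just short of the threshold (Fisher's exact test, two-sided, adjusted p = 0.0586). It passed when peaks within 300 bp of a stronger one were left out (−8.73 points, Fisher's exact test, adjusted p = 0.0476) and against all nearer peaks, promoters included (−7.04 points, adjusted p = 0.0447). The difference shrank to −1.67 points at a cutoff of 20000 bp and −4.25 points with TSSs of all genes, and was called in neither case. The strongest on 2L, 3L and 3R were those by chinmo, in fz and in osa described above.

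Intergenic DNA held 118 distal summits (58.1%) and introns 81 (39.9%), although introns make up 48.7% of the bases at these distances. These places refer to protein-coding genes only, so intergenic DNA can include non-coding genes. A non-coding gene spanned 16 distal summits (7.88%). Nearer non-promoter summits were in introns in 549 of 846 cases (64.9%). The remaining 4 distal summits were in exons of protein-coding genes: the 5′ UTR of baz, the 3′ UTRs of Antp and pros and the coding sequence of Dscam4. The summit was downstream of its nearest TSS in 123 cases and upstream in 80. The median distance was 15370 bp, the upper quartile 22830 bp, and 65 peaks lay beyond 20000 bp and 13 beyond 50000 bp.

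Peaks on either side of the cutoff at 10000 bp lay in introns. The 3 distal peaks nearest to it lay in introns of Dhc36C (10197 bp, signal 101), Oct-TyrR (10224 bp, 56.0) and dlp (10287 bp, 85.3). The 3 peaks just within it also lay in introns, of Efa6 (9981 bp, 75.4), Hr4 (9957 bp, 162) and NetA (9944 bp, 123). The farthest members were on 3R at the base of the arm. They lay in an intron of Myo81F, 816520 bp from the TSS of Pzl (signal 114.9), in an intron of Pzl itself, 441864 bp from its TSS (67.7), and 393267 bp upstream of Myo81F (106). Among these, the last was called in both replicates.

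Distal from a protein-coding TSS did not always mean far from any gene start. A non-coding TSS was within 500 bp of 11 distal summits (5.42%) and 47 nearer non-promoter ones (5.56%, Fisher's exact test, adjusted p = 1), and within 10000 bp of 82 distal summits. The strongest were the second osa peak, 186 bp from the start of lncRNA:CR46036, and a peak on 2L by lncRNA:CR44917 (190 bp, signal 157, with 73.3 in replicate 1 and 83.8 in replicate 2). Next came peaks at lncRNA:CR34335 in an intron of DIP-alpha (222 bp, 131), a pair on 3L at lncRNA:CR45251 (205 and 296 bp, 95.8 and 87.4) and lncRNA:CR45820 in Eip63E (272 bp, 94.6). Soft-masked sequence, which marks repeats, was at 44 distal summits (21.7%) and 162 nearer ones (19.1%, Fisher's exact test, adjusted p = 0.593), and it makes up 28.9% of distal bases. An annotated transposable element spanned 3 distal summits. A GC content below the pooled median was found at 37.4% of distal and 44.3% of nearer non-promoter windows (Fisher's exact test, adjusted p = 0.261).

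Neighbouring summits were counted next. Another pooled summit lay within 10000 bp of 90 distal peaks (44.3%) and 466 nearer non-promoter peaks (55.1%, a difference of −10.8 points, Fisher's exact test, adjusted p = 0.0586). By the rule, a promoter summit can lie within 10000 bp of a distal one only at the edge of that range. Nearer peaks have no such limit, so the rule fixes part of this difference, and how much was not tested. A cutoff of 20000 bp bars promoter neighbours altogether. By the same exact test the difference was called with TSSs of all genes (−19.1 points, adjusted p = 0.00215), with a cutoff of 20000 bp (−22.1, adjusted p = 0.014) and without close peaks (−11.5, adjusted p = 0.0476). It was not called at 5000 bp (−6.53), in the conservative list (−8.25), in the list of replicate 1 (−7.84) or against all nearer peaks (−5.85). The sign turned in the list of replicate 2 (6.23 points) and among peaks above the median signal (3.11 points), neither of which was called. Where a setting used another list or a subset of peaks, only the summits of that set counted as neighbours. Another distal summit was within that distance of 79 members.

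In all, 9 runs of 3 or more distal summits with gaps under 10000 bp were found, and 4 of them (sbb, Ids, noc and Sf3b3) still had 3 or more places when peaks within 300 bp of a stronger one were left out. The other 5 then had 2 places each. The introns of sbb held 6 within 9468 bp, with signals between 4.37 and 291 and 2 of them called in both replicates. Another 6 lay within 6789 bp of intergenic DNA by Ids, the gene of a lysosomal sulfatase (18.0 to 142, 3 in both). Runs of 3 lay upstream of wg, the Wnt ligand of segment polarity (14.0 to 93.2), and by CG33648 and noc, the nearest to 2 of them and a zinc-finger gene of head and appendage development (77.9 to 121). Runs of 3 also lay between 18w, a Toll-family receptor gene, and CG11041, the nearest gene to 2 of them (2.58 to 137), and by Dr, a homeobox gene of dorsoventral neural patterning (26.1 to 97.1). The others were by the splicing factor gene Sf3b3 (64.9 to 148), the micropeptide gene tal-1A and the dipeptidase gene Dip-B, the nearest to 2 of them (3.26 to 146), and the adenylyl cyclase gene ACXC (8.86 to 76.7). The widest ran over 10212 bp, by noc.

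Of the 61 genes with a distal peak in an intron, 13 held 2 or more. These counts include weak peaks, with a lowest signal of 4.371 in sbb, 3.765 in MFS17, 4.641 in RapGAP1 and 12.01 in CG43759. Each distal peak under 30 overlapped another pooled peak, so these 4 genes may hold fewer separate places. After sbb with 6 came Hr4, CG43759, kirre and ed with 3 each. kirre and ed encode immunoglobulin-type adhesion proteins, and their 3 peaks each had signals of 82.7 to 95.5 and 64.6 to 82.4. The genes with 2 were osa, CG6959, Sema1a, CG42238, MFS17, pnt, hth and RapGAP1. Sema1a encodes an axon guidance semaphorin (134.6 and 75.3), pnt an ETS factor downstream of receptor tyrosine kinases (95.6 and 61.6), and hth the homeodomain partner of Hox proteins (75.3 and 72.4). These genes are long, with kirre at 394149 bp and hth at 132008 bp, and osa at 30533 bp is the shortest of them.

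The nearest genes were compared with lists of patterning genes, among which Giant's known targets are gap and pair-rule genes. A distal peak was nearest to 0 of 7 gap genes, 1 of 9 pair-rule genes, 1 of 8 Hox genes and 3 of 9 head and maternal genes. It was nearest to 3 of 10 segment polarity genes, 2 of 21 dorsoventral genes, 0 of 8 mesoderm genes and 2 of 15 nuclear receptor and ecdysone genes. The 5 anterior-posterior lists together had 8 of 43 genes nearest to a distal peak (18.6%), and all 8 lists had 12 of 87 (13.8%). Among protein-coding genes on the main arms it was 154 of 13945 (1.1%). Of the 154, 36 were nearest to 2 or more, with overlapping peaks counted separately. These counts have no test here, because genes with wide flanks are nearest to more distal sequence.

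Outside the nuclear receptor and ecdysone list, which holds the Hr4 peak given above, the T-box gene mid had the strongest distal peak (2L 5476669 to 5477024, signal 141), with 67.5 in replicate 1 and 75.8 in replicate 2. The Wnt inhibitor gene nkd had one in an intron (121), with 51.0 in replicate 1 and 63.2 in replicate 2. The Hox gene Antp had one in its 3′ UTR (120), with 66.9 in replicate 1 and 64.0 in replicate 2, and a second in an intron (94.0). All but the second Antp peak were called in both replicates, as was the strongest of the 3 by wg (93.2).

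The single peaks or pairs by other listed genes were not called in both replicates. The forkhead gene croc had 94.0, with 44.1 in replicate 1 and 46.8 in replicate 2. The homeobox gene ems had a pair (88.5 and 66.5), and the head gap homeobox gene oc had 70.2. The pair-rule gene ftz had 73.4, with 18.1 in replicate 1 and 58.9 in replicate 2. The EGF receptor ligand gene vn had 70.4 and the LIM-homeodomain gene tup 69.9. In the nuclear receptor list, EcR, the ecdysone receptor gene, had an intronic peak of 76.6, and the other Hr4 peaks had 83.5 and 82.6.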

How the data were processed

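The labels name dm6 as the assembly and list a control, but the sources used here name neither aligner nor peak caller. Peak signal is a value the authors deposited, on a scale that no label or header explains. In their ranked lists, the authors also deposited the −log10 of the irreproducible discovery rate, which entered no test. The longer thresholded list deposited for the series is the pooled list (1861 peaks, of which 36 off the main arms were not used), and the shorter is the conservative list. Sites were analysed with Python 3.11.15, pandas 2.3.3, scipy 1.17.1 and statsmodels 0.14.6. Overlaps needed 1 bp. A member's replicate value is the signal of its region in that replicate's ranked list.

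The 203 distal peaks were compared with 846 nearer non-promoter peaks by a two-sided Fisher's exact test, called at a Benjamini-Hochberg adjusted p under 0.05 over 19 shares. The test treats peaks as independent, although neighbours overlap and all share 2 libraries. Wilson intervals cover the counting of peaks only. The labels give biological replicate numbers, with no word on how the embryo samples were separated. The scripts were tested on simulated data. The members, gene lists and motifs were chosen with earlier results of these data known.

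Named peaks were the 12 strongest in both replicates, 3 on each side of the cutoff, the 3 farthest, the strongest per arm, the 6 strongest at non-coding starts, runs of 3 or more, hosts of 2 or more and those nearest to listed genes. The class 1 and class 2 sequences, pros and Dscam4 were chosen after their values were seen.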

Additional observations from a re-analysis of the deposited data

How the results depend on the processing

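Of 252 tested values under alternative settings, 242 kept their side of the threshold and 10 passed it anew. Over all 266 values, 33 differences that were not called changed sign. The distal share of 11.1% became 22.5% at a cutoff of 5000 bp, 3.56% at 20000 bp, 6.52% with TSSs of all genes and 8.22% above the median signal, and 8.77% to 9.36% when 1 replicate was left out. Without peaks within 300 bp of a stronger one, the X share (−8.73 points) and a neighbouring summit (−11.5 points) passed the threshold. The neighbouring summit also passed at 20000 bp (−22.1 points) and with TSSs of all genes (−19.1 points), although the rule itself keeps promoter summits away from distal ones. Against all nearer peaks, promoters included, distal peaks had lower shares, by Fisher's exact test, of signal above the median (−14.7 points, adjusted p = 0.000955), overlap with both replicates (−16.4, adjusted p = 9.79e-05), summits on X (−7.04), GC below the median (−13.2), the permuted site (−5.06) and the DREF site (−2.96). The cause was not tested. No paired comparison between sample groups was possible because there is 1 group. Overlap with both replicates could not be computed within the list of 1 replicate. Signal against each replicate's own median was added after the data were seen. Without read counts, no limit of depth can be given.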
